A study of Mus musculus with 3 samples.

Results

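The 1-cell embryo of the mouse carried 14722 5-methylcytosine (m5C) sites that neither oocyte list held, in genes where an oocyte list held some other site. They were chosen by their presence in the 1-cell embryo list, their absence from the germinal vesicle (GV) and metaphase II (MII) oocyte lists, and the presence of their gene in either oocyte list. They made up 58.9% of the 24996 embryo sites and 88.4% of the 16648 embryo sites that no oocyte list held, out of 40298 distinct sites in all 3 lists. They lay in 4539 genes, which is 62.9% of the 7217 genes with an oocyte site. The same genes held 7337 embryo sites shared with an oocyte list, and 10136 oocyte sites missing from the embryo list. Presence, level and coverage chose these sites, so these values are described without a test.

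The study mapped m5C of maternal mRNA across stages by RNA bisulfite sequencing, in which a methylated C stays C while an unmethylated C is read as T. All donors were wild-type C57BL/6J females, and the labels gave an age of 7 to 8 weeks. GV oocytes, which had not resumed meiosis, were taken 48 h after 10 IU PMSG, a hormone that drives follicle growth. MII oocytes, which were matured and ready for fertilization, were taken 12 h after 5 IU hCG, a hormone that triggers ovulation, following 10 IU PMSG. The 1-cell embryos came from females mated with C57BL/6J males, were taken 24 h after 5 IU hCG following 5 IU PMSG, and were pooled for 1 library. The methods of the study and the labels differed in the hormone doses, in the age of the oocyte donors and in the way that ribosomal RNA was avoided. The conversion text of the labels also differed between oocytes and embryos, so stage cannot be told apart from library batch. There was 1 library per stage, hence no replicate check, and the intervals given here are 95% intervals that cover counting error only, since reads were not collapsed by molecular identifiers and sites of one gene share a transcript.

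In animal mRNA, m5C is deposited mainly by NSUN2 and NSUN6. NSUN2 prefers a cytosine followed by a run rich in guanine at the base of a small stem-loop (Type I sites), and NSUN6 recognizes CUCCA and close relatives in a loop (Type II sites). Fully grown oocytes and 1-cell embryos are nearly silent or only weakly active in transcription, and depend on maternal mRNA that was made and stored earlier.

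Some embryo-only sites were packed into short stretches of one exon, and others lay beside a deeply sequenced oocyte site. The following windows of 29 nt held the most embryo-only sites, at most 1 window per gene, and are shown because they give the local context of such packing. Capitals mark the embryo-only sites, sequences run 5′ to 3′ as DNA letters, and coordinates are GRCm38 with the strand of the gene.
Arf6, 5′ untranslated region (UTR), chr12:69372399-69372427, plus strand: CCggggtcggtgCcgagtccggtgctcgC
Trappc9, coding sequence (CDS), chr15:72925534-72925562, minus strand: tCaaggCaaagCtggatttctcttgcCag
Parg, CDS, chr14:32202322-32202350, plus strand: cctcggactCCCggagcttcCctggcagg
Espl1, CDS, chr15:102319841-102319869, plus strand: cccCcaggcagagaaggagagtttCCagg
Gbf1, CDS, chr19:46265670-46265698, plus strand: tcaacagaaCatggaaagCCagggtgcag
Socs7, CDS, chr11:97362696-97362724, plus strand: cgggagcCgggaccctCggaaCtgctgtg

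The Arf6, Trappc9 and Parg windows held 4 embryo-only sites each, and the other windows held 3. In Parg, which encodes the enzyme that degrades poly(ADP-ribose), a run of 3 cytosines was unconverted in 27 of 53, 14 of 54 and 12 of 55 reads from its 5′ to its 3′ end. The fourth site of this window was unconverted in 14 of 54 reads. Levels within the Parg window thus ran from 21.8% to 50.9%. In Espl1, which encodes separase, the protease that cuts cohesin at anaphase, the first site was at 25% of 184 reads, and the adjacent pair further 3′ at 27.1% of 192 and 14.7% of 191 reads. In Arf6, which encodes a small GTPase of membrane traffic and the actin cortex, they ran from 12.5% of 64 reads to 28.9% of 76 reads. None of the 6 windows held an oocyte site. Over all genes, the densest window of 29 nt held 3 embryo-only sites in 46 genes, 2 in 719 genes and 1 in 3571 genes. Whether the sites of a window were unconverted on the same molecules was not tested, since the lists give totals per site.

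A second set lay within 10 nt of an oocyte site that had at least 500 reads in an oocyte, and is shown because the oocyte libraries covered the spot deeply. There were 111 such sites, of which 99 had at least 50 embryo reads, with a median level of 14.8% and a median of 168 reads. Printed are the 8 with the highest embryo level among these 99, 1 per gene, and capitals again mark the embryo-only site alone.
Cbx2, CDS, chr11:119028039-119028067, plus strand: gcctcagaaaaaagcCcagatcctggtag
Abcb8, CDS, chr5:24402045-24402073, plus strand: attgCcagggcaacaggtgtagcagatga
Dusp12, CDS, chr1:170885171-170885199, minus strand: ggttcgaaggtctcCggagcctcttcgtg
Pik3cd, 3′ UTR, chr4:149650235-149650263, minus strand: tgcctggaacaagcCtggcggtcacctgg
Itga6, CDS, chr2:71787239-71787267, plus strand: tccggaaatcgggggatccCgggagcctc
Asxl1, CDS, chr2:153396748-153396776, plus strand: gatgcaagtCaggctaagacaggaaatgg
2700049A03Rik, CDS, chr12:71184423-71184451, plus strand: ttgcaggaacaagCagtggagcgctccag
Yipf4, 5′ UTR, chr17:74489652-74489680, plus strand: cgccccttagcaggtcgtcCcggagcccc

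In Cbx2, which encodes a Polycomb protein, the cytosine just 5′ of the embryo-only site was listed at every stage. In GV oocytes 21.4% of its 845 reads were unconverted, in MII oocytes 36.6% of 708 and in 1-cell embryos 54.5% of 101. The embryo-only site itself was at 35.6% of 101 reads (27% to 45.4%). In Abcb8, a mitochondrial transporter gene, the oocyte site lay just 3′ of the embryo-only site and read 20.2%, 25.8% and 54.4% at the successive stages, against 34.1% of 88 embryo reads at the embryo-only site. In Pik3cd, which encodes a catalytic subunit of phosphoinositide 3-kinase, the neighbour read 17.2%, 26% and 66.2%, and the embryo-only site 29.2% of 72 reads. In these 3 genes the embryo-only site was below its neighbour in the embryo.

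The other genes of this set did not all share that order. In Dusp12, a phosphatase gene, the neighbour was at 28.8% of 139 embryo reads and the embryo-only site at 30.9% of 149 reads (24.0% to 38.7%), which overlaps. In Asxl1, which encodes a Polycomb-associated chromatin protein, the oocyte site 10 nt to the 3′ side was nearly fully methylated, at 89.2% of 1485 GV reads, 94.6% of 1378 MII reads and 94.4% of 126 embryo reads, and the embryo-only site was at 27.9% of 129 reads. In Itga6, an integrin gene, the oocyte site 10 nt to the 5′ side read 39.8%, 45.2% and 49.1%, and the embryo-only site 28.0% of 311 reads (23.3% to 33.2%). In Yipf4, a Golgi protein gene, the oocyte site 9 nt to the 5′ side read 42.5%, 53.9% and 71.2%, against 27% of 252 reads at the embryo-only site. In 2700049A03Rik, both sites were near each other in the embryo, at 23.3% of 223 reads and 27.1% of 229 reads. The neighbour was thus lower than the embryo-only site in Dusp12 and 2700049A03Rik, within the interval in both, and higher in the rest.

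The level of embryo-only sites was low. The median was 19.2% (19.0% to 19.4%, quartiles 13.7% and 29.3%), against 38.9% (38.1% to 40.0%, quartiles 24.1% and 62.2%) at the shared embryo sites of the same genes. The median coverage was 57 and 66 reads. Coverage and level are tied by the listing limits of at least 20 reads, a level of at least 10% and at least 5 unconverted reads, so the medians were also taken in classes of coverage. At 20 to 29 reads, the median level was 39.1% of embryo-only sites and 53.8% of shared sites. At 30 to 49 reads it was 25% and 42.9%, and at 50 to 99 reads 16.4% and 37.6%. At 100 reads or more, where the limits on reads weigh least, it was 13.4% (quartiles 11.4% and 17.1%) and 31.6% (quartiles 20.6% and 50.6%). The gap was present in every class, and the median of the best-covered embryo-only sites stood near the limit of 10%.

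**Figure D1:**
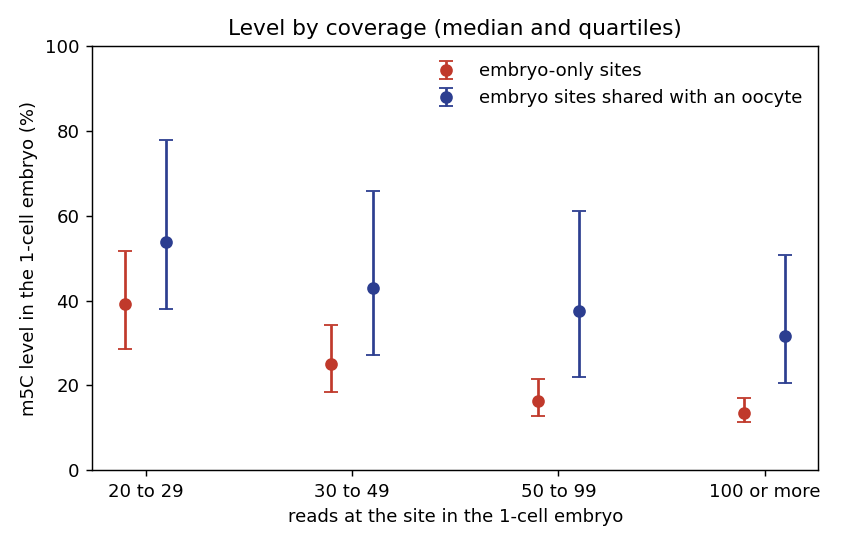
The m5C level in the 1-cell embryo (%, vertical axis) is plotted by the number of embryo reads at the site (horizontal axis), with points at the median and bars from the lower to the upper quartile. Embryo-only sites run from 39.1% at 20 to 29 reads to 13.4% at 100 reads or more, and lie below the shared sites in all 4 classes.

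The gap was also seen gene by gene. Shared sites had to pass the limits in an oocyte list as well, and embryo-only sites did not. The part of this choice in the gap, within genes or over all sites, was not tested. In 3199 genes with both kinds of site, the median level of the embryo-only sites was the lower one in 2764 genes (86.4%), and the median difference, embryo-only minus shared, was -19.1 points. With sites of at least 50 reads alone, it was lower in 1818 of 1986 genes (91.5%), and the median difference was -19.1 points. Coverage did not differ in the same way, with a median over genes of 60 reads for both kinds and a lower coverage of embryo-only sites in 50.6% of genes. The remaining 1340 genes, with 2813 embryo-only sites, held no shared embryo site.

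High levels were rare and mostly rested on few reads. Of the embryo-only sites, 908 (6.17%, 5.79% to 6.57%) were at 50% or more, against 2691 (36.7%, 35.6% to 37.8%) of the shared sites. Among sites of at least 50 reads, 46 of 8559 embryo-only sites (0.537%, 0.403% to 0.716%) and 1395 of 4647 shared sites (30.0%, 28.7% to 31.3%) were that high. At 80% or more there were 105 embryo-only sites (0.713%) and 909 shared sites (12.4%). At exactly 100% there were 51 embryo-only sites, of which the deepest had 47 reads, and 393 shared sites.

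That deepest site lay in Eif4e2, which encodes a cap-binding protein that can repress translation. It was unconverted in 47 of 47 reads (92.4% to 100%) at chr1:87214268 on the plus strand, in the 5′ UTR of a transcript other than the one with the longest CDS. In Fgd1, which encodes an activator of Cdc42, 33 of 40 reads were unconverted (82.5%) at 12 nt from an oocyte site at 16.4% of 134 GV reads and 11.9% of 143 MII reads. In Rab3gap2, 31 of 38 reads were unconverted (81.6%) at 16 nt from a site at 26.7% of 509 GV reads, 37.8% of 399 MII reads and 68.0% of 25 embryo reads. Dnah10, an axonemal dynein gene, had 37 of 44 unconverted reads (84.1%), with its nearest oocyte site, at 242 nt, at 75% of 184 GV reads and 80.7% of 57 MII reads. Pola2, a subunit of DNA polymerase alpha, had 34 of 41 (82.9%) and Fbxo3, an F-box gene, 29 of 35 (82.9%). All of these sites had fewer than 50 reads.

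The deepest embryo-only sites were all of low level. Gm13084 had the deepest, with 384 of 2747 reads unconverted (14.0%, 12.7% to 15.3%) in its CDS. This gene has close relatives nearby in the genome, so its reads could be split among copies and the value is uncertain. Elobl had 16% of 1894 reads (14.4% to 17.7%), 42 nt from an oocyte site at 16.4% of 11574 GV reads, 20.0% of 7430 MII reads and 28.5% of 1208 embryo reads. Dnmt1, the maintenance DNA methyltransferase, had 10.4% of 1889 reads (9.13% to 11.9%) in exon 6, while its nearest oocyte site, 3279 nt away in exon 33, read 51.6% of 2139 GV reads, 58.5% of 644 MII reads and 61.1% of 54 embryo reads. Tle6, a member of the subcortical maternal complex, had 17.1% of 1848 reads, 140 nt from a site at 11.6% of 6987 MII reads and 24.6% of 1966 embryo reads. Ccno, a cyclin-like gene, had 16.2% of 1800 reads, 43 nt from a site at 19.5% of 7442 GV reads, 27.4% of 5677 MII reads and 42.7% of 1735 embryo reads. Bod1, which acts in chromosome biorientation, had 10.2% of 1852 reads, Elof1, a transcription elongation factor gene, 19.6% of 1538 reads, and Bpgm, which encodes bisphosphoglycerate mutase, 16.7% of 1529 reads. These 8 sites lay between 10.2% and 19.6%.

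Near the limits, 558 embryo-only sites (3.79%) had exactly 5 unconverted reads and 225 had exactly 20 reads. A level under 12%, just inside the limit of 10%, was held by 2167 embryo-only sites (14.7%) and by 199 shared sites (2.71%). Just outside it the lists give no value. At 901 shared sites the higher oocyte level was itself under 12%, and the embryo level there had a median of 22.8%, with a median of 275 oocyte reads. These sites were chosen for a low oocyte level and had to reach 10% in the embryo. A higher embryo median thus follows in part from the choice, and no rise was tested.

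The reads behind an absence from the oocyte lists could be judged only from neighbours, since coverage at other positions was not analysed here. Within 50 nt of an oocyte site there were 2436 embryo-only sites. The nearest oocyte site had a median of 227 reads in the deeper oocyte library, the embryo-only sites a median of 60 embryo reads, and the oocyte reads were at least as many in 2367 cases (97.2%). In 1989 cases (81.7%) the neighbour had at least 100 oocyte reads. Their median embryo level was 17.8%, with 812 at 20% or more and 89 at 50% or more. At shared sites, the GV library had a median of 277 reads against 65 in the embryo, and the MII library 245 against 67. The unconverted background of the same genes, recovered from the deposited p-values, had a median of 0.260% in GV oocytes, 0.362% in MII oocytes and 0.384% in 1-cell embryos. It was higher in the embryo than in GV oocytes in 80.4% of genes and than in MII oocytes in 58.6%. In the embryo it was 0.310% in genes with 1 embryo-only site and 0.498% in genes with 10 or more. The deposited values do not show whether unconverted reads at the sites themselves entered this rate, so it may not be independent of the number of sites. Its part in the number of embryo-only sites was not tested.

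Distance to oocyte sites was counted along the spliced transcript with the longest CDS and could be given for 14022 sites. The median distance to the nearest oocyte site was 228 nt (220 to 234), against 464 nt (463 to 465) for the 4426488 cytosines of these transcripts that no list held. The latter include positions with few or no reads, whereas both kinds of listed site needed at least 20, and the part of uneven coverage along a transcript in this gap and in the decline with distance was not tested. For the 6495 shared sites with another oocyte site in the transcript, the median distance to it was 175 nt (168 to 183), a value that leaves out genes with a single oocyte site. Within 10 nt of an oocyte site lay 4.51% (4.18% to 4.87%) of the embryo-only sites, 1.76% of the other cytosines and 9.05% of the shared sites. Within 100 nt these shares were 30.1%, 17.0% and 36.6%.

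The adjacent cytosine stood apart. These rates leave out cytosines that were oocyte sites themselves. Of the other cytosines directly beside an oocyte site, 40.7 per 1000 (35.9 to 46.1) were embryo-only sites, against 10.8 at 2 nt, 4.41 at 3 to 5 nt, 5.26 at 6 to 10 nt and 5.41 at 11 to 50 nt. Beyond that the number was 5.22 at 51 to 100 nt, 3.77 at 101 to 500 nt and 1.84 (1.78 to 1.90) further away. Directly 3′ of the oocyte site it was 118 of 1826 cytosines, or 64.6 per 1000 (54.2 to 76.8), and directly 5′ of it 116 of 3924, or 29.6 per 1000 (24.7 to 35.3). The count of embryo-only sites was thus nearly equal on both sides, while fewer cytosines that were not oocyte sites were present on the 3′ side. The decline with distance was present among cytosines with 0 or 1 guanine at the following 4 positions, from 26 per 1000 beside the oocyte site to 0.897 beyond 500 nt, and among those with 3 or 4 guanines, from 75.2 to 10.7 per 1000. The level did not follow distance closely, with medians of 21.6% (19.2% to 25%) beside an oocyte site, 18.5% at 2 to 10 nt, 18.9% at 11 to 50 nt and 19.5% beyond 500 nt. Of the embryo-only sites, 872 (6.16%) had another one within 10 nt and 227 (1.60%) directly beside them.

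**Figure D2:**
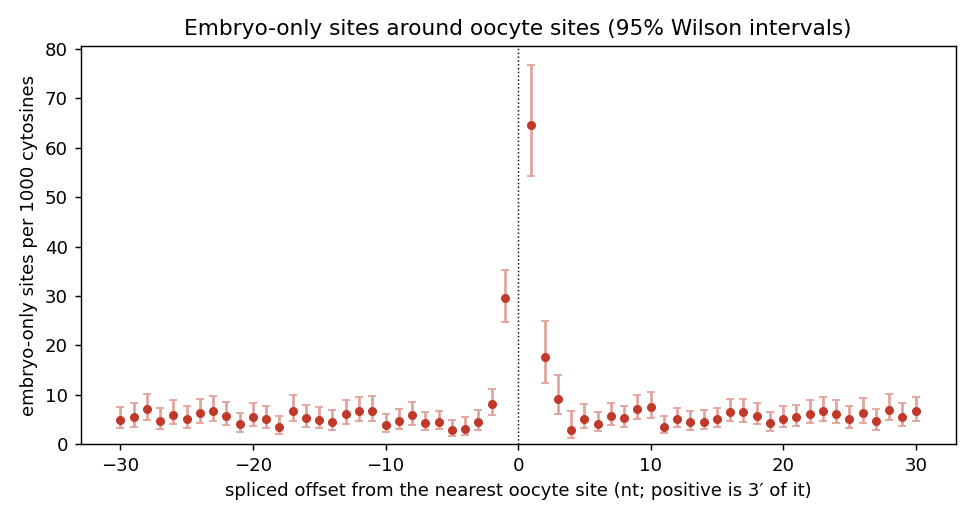
The number of embryo-only sites per 1000 cytosines in no oocyte list (vertical axis) is plotted by the spliced offset from the nearest oocyte site (nt, horizontal axis, positive values are 3′ of it), with 95% Wilson intervals. The cytosine at +1 stands at 64.6, the one at -1 at 29.6, and from 4 nt outward on either side the values lie below 10.

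The sequence around embryo-only sites was that of Type I sites, in a less pronounced form. The mean number of guanines at the following 4 positions was 1.82 (1.80 to 1.83, SD 0.949) at 14150 embryo-only sites, 2.13 (2.11 to 2.16) at shared sites, 2.09 (2.07 to 2.11) at oocyte sites missing from the embryo, and 0.922 at cytosines in no list. At least 3 guanines were present at 23.6% (22.9% to 24.3%) of embryo-only sites, 36.5% of shared sites, 35% of the missing oocyte sites and 4.24% of cytosines in no list. The share with guanine at position +2 was 56.5% (55.6% to 57.3%), 64.6%, 64.8% and 28.9% in the same order. With at least 50 reads the mean was 1.84 at embryo-only sites (1.82 to 1.86) and 2.14 at shared sites, a difference of like size. The CUCNA motif of Type II was present at 369 embryo-only sites, or 2.61% (2.36% to 2.88%), against 4.63% (4.16% to 5.15%) of shared sites, 5.62% (5.17% to 6.10%) of the missing oocyte sites and 1.59% of cytosines in no list.

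Predicted structure was read from windows of the spliced transcript. In windows of 101 nt folded with the site at the centre, the median free energy was -28.9 kcal/mol (-29.1 to -28.8) at 14014 embryo-only sites, -30.5 kcal/mol (-30.8 to -30.3) at shared sites and -30.1 kcal/mol at the missing oocyte sites. The base at +3 was paired in 67.4%, 73.1% and 74.2% of windows, and the base at -2 in 50.8%, 48.4% and 47.1%. The site itself was paired in 60.3% (59.5% to 61.1%), 59.7% and 56.6%. Among these groups, embryo-only sites thus had the least pairing at +3 and the most at -2. At the site itself their interval overlapped that of shared sites (58.5% to 60.8%). Embryo sites in genes with no oocyte site had still less pairing at +3, at 65.6%, and more at -2, at 51.7%. Cytosines in no list were not folded.

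**Figure D3:**
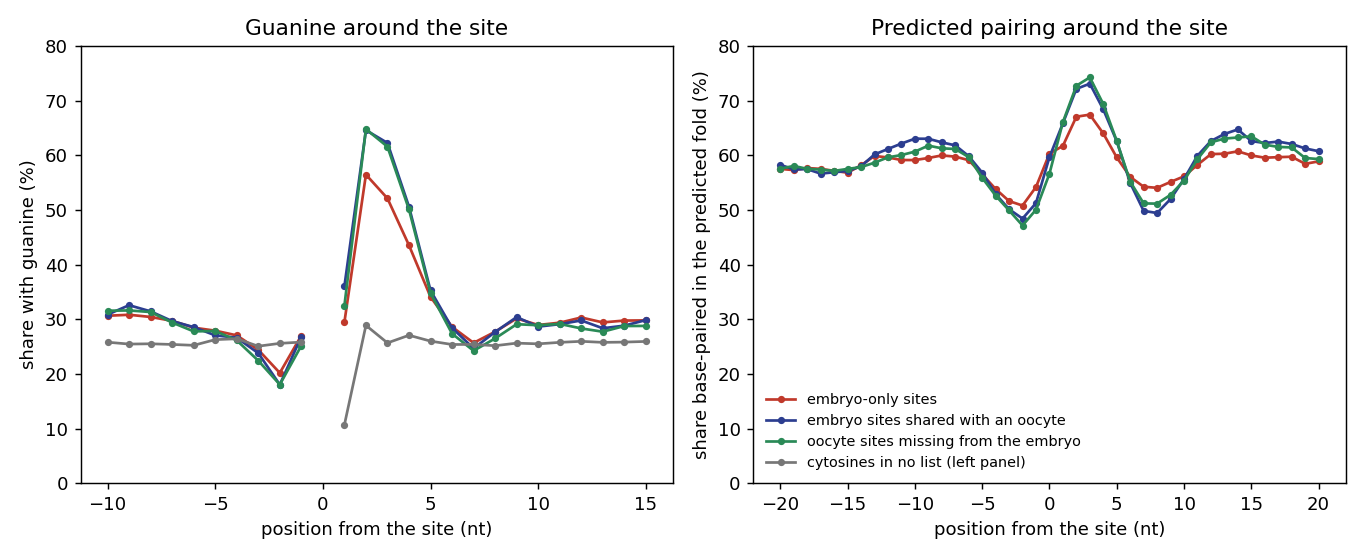
The share of sites with guanine (%, left) and the share base-paired in the predicted fold (%, right) are plotted by position from the site (nt), with 1 line per group of sites. Embryo-only sites reach 56.5% guanine at +2 and 67.4% pairing at +3, below the shared sites (64.6% and 73.1%), while cytosines in no list stay at 28.9% guanine at +2.

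Most embryo-only sites were coding. Shares by region are over sites in the reference transcript, of which 14150 were embryo-only. The CDS held 76.1% (75.4% to 76.8%) of these embryo-only sites, the 5′ UTR 8.76% (8.31% to 9.24%) and the 3′ UTR 14.3% (13.7% to 14.8%). Shared sites were placed alike, with 75.3%, 9.73% and 14.1%, and the oocyte sites missing from the embryo had more of the 3′ UTR, with 65.4%, 10.7% and 23.2%. Cytosines in no list had 57.1%, 7.32% and 34.8%. These include positions with few or no reads, and the part of uneven coverage in the differences from them was not tested. Within the CDS, the first 1 of 5 equal parts held 23.8% (23.0% to 24.6%) of embryo-only sites and 20.2% of cytosines in no list. It held 22.9% (21.8% to 24.0%) of shared sites and 21.1% of the missing oocyte sites. For embryo sites in genes with no oocyte site it was 25.2% (22.9% to 27.6%). These shares of listed sites were taken over all their CDS sites, some of which lay outside the reference transcript and in no part. For embryo-only sites, 10773 of 10857 were placed. The shares of listed sites are thus slightly low against those of cytosines in no list. Codon positions 1, 2 and 3 held 36.3%, 26.9% and 36.8% of embryo-only sites. The shares were 37.8%, 26.5% and 35.8% for shared sites and 32.2%, 30.7% and 37.1% for cytosines in no list. Nearly all lay in protein-coding genes, with 14581 sites in 4467 such genes and 69 sites in 30 lincRNA genes.

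The 1-cell embryo list also held 1926 sites in genes with no oocyte site. Their median level was 20.5% (20.0% to 21.3%), and at 50 reads or more 14.8% (14.4% to 15.3%) against 15.1% (14.9% to 15.2%) at the embryo-only sites described here. Their guanine content was further from that of the shared sites, with a mean guanine count of 1.76 (1.71 to 1.80) and 0 or 1 guanine at 39.6% (37.4% to 41.9%) against 35.1% (34.4% to 35.9%). Their median free energy was -26.9 kcal/mol (-27.3 to -26.5) against -28.9 kcal/mol. Of the sites in the reference transcript, 4.70% (3.83% to 5.76%) lay in noncoding transcripts against 0.834%. Their Type II share was 3.62% (2.86% to 4.57%).

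Embryo-only sites were spread over many genes. There was a single one in 1428 genes (31.5%), the median was 2 per gene, and 182 genes with 10 or more held 2252 of them (15.3%). In 1508 genes (33.2%) they outnumbered the oocyte sites. Genes with more oocyte sites more often held them, in 45.0% of genes with 1 oocyte site, 64.2% with 2 to 3, 78.6% with 4 to 9 and 88.3% with 10 or more. Transcript length moved with this, with a median of 2564 nt in the lowest class and 5950 nt in the highest. Per 1000 cytosines of the reference transcripts the number was 1.26, 1.97, 2.58 and 2.86 in the same order. Both kinds of site needed at least 20 reads, and the part of read depth of the genes in this rise was not tested.

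The most embryo-only sites, 25, were in Ephb6 and Pdzd2. Ephb6 encodes an ephrin receptor whose kinase domain is inactive. Its 25 sites had a median level of 15.4% (lowest 10.1%, highest 35.1%) and 25 to 122 reads. Of them, 22 were in the CDS and 3 in the 5′ UTR, and the 7 shared sites of the gene had a median of 35.3%. The gene held 9 GV and 12 MII sites. Pdzd2, which encodes a protein with PDZ domains, had 25 sites with a median of 18.9%, and 1 of them at 100% of only 21 reads, while its 6 shared sites had a median of 31.8%. Gse1 had 24 sites at a median of 17.9%, beside 15 shared sites at 37.8%. Gse1 held 25 sites in MII oocytes, more than Ephb6 and Pdzd2. The order of genes depended on the limits, and at 100 reads or more Ephb6 kept 5, Pdzd2 2 and Gse1 1 of these sites, while Insm1 had 11 and Lrp5 10.

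Among the genes that followed, Atg2a, which encodes a lipid transfer protein of autophagy, had 21 embryo-only sites (median 17.5%, lowest 10.9%, highest 32.0%). It had 6 oocyte sites, of which the embryo list lacked 1. Gbf1, an activator of Arf GTPases at the Golgi, had 21 (14.0%) and 7 oocyte sites. Plxna1, a semaphorin receptor, had 20 (18.6%) and 6, and Lrp5, a Wnt co-receptor, 19 (12.9%) and 5. Tnks, the poly-ADP-ribosylating enzyme tankyrase, had 19 (15.9%) and 6 oocyte sites, and was the exception in level, since its 4 shared sites had a median of 16.6%. Espl1 had 19 embryo-only sites, all in the CDS, at a median of 23.9%, and 5 of them lay within 10 nt of an oocyte site. Insm1, a zinc finger transcription factor, had 19 at a median of 14.8% of 113 reads, beside 9 shared sites at 47.1%. Lama5, a laminin chain, had as many embryo-only as shared sites, 19 of each, with medians of 26.1% and 54.7%, and 18 oocyte sites that the embryo lacked.

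**Figure D4:**
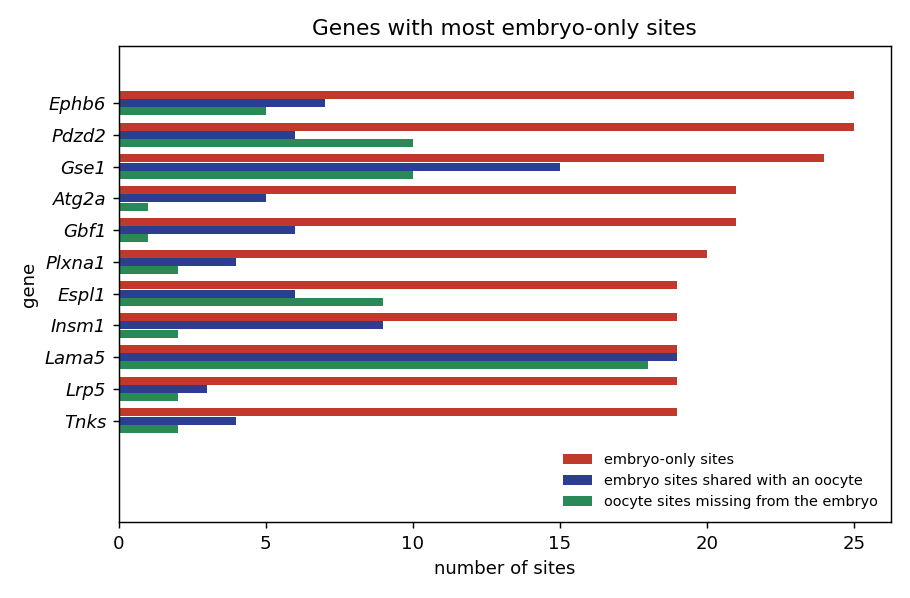
Bars give the number of sites (horizontal axis) in 11 of the 12 genes with most embryo-only sites, in 3 classes. Ephb6 and Pdzd2 have 25 embryo-only sites each, and Lama5 has 19 embryo-only and 19 shared sites.

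**Figure D5:**
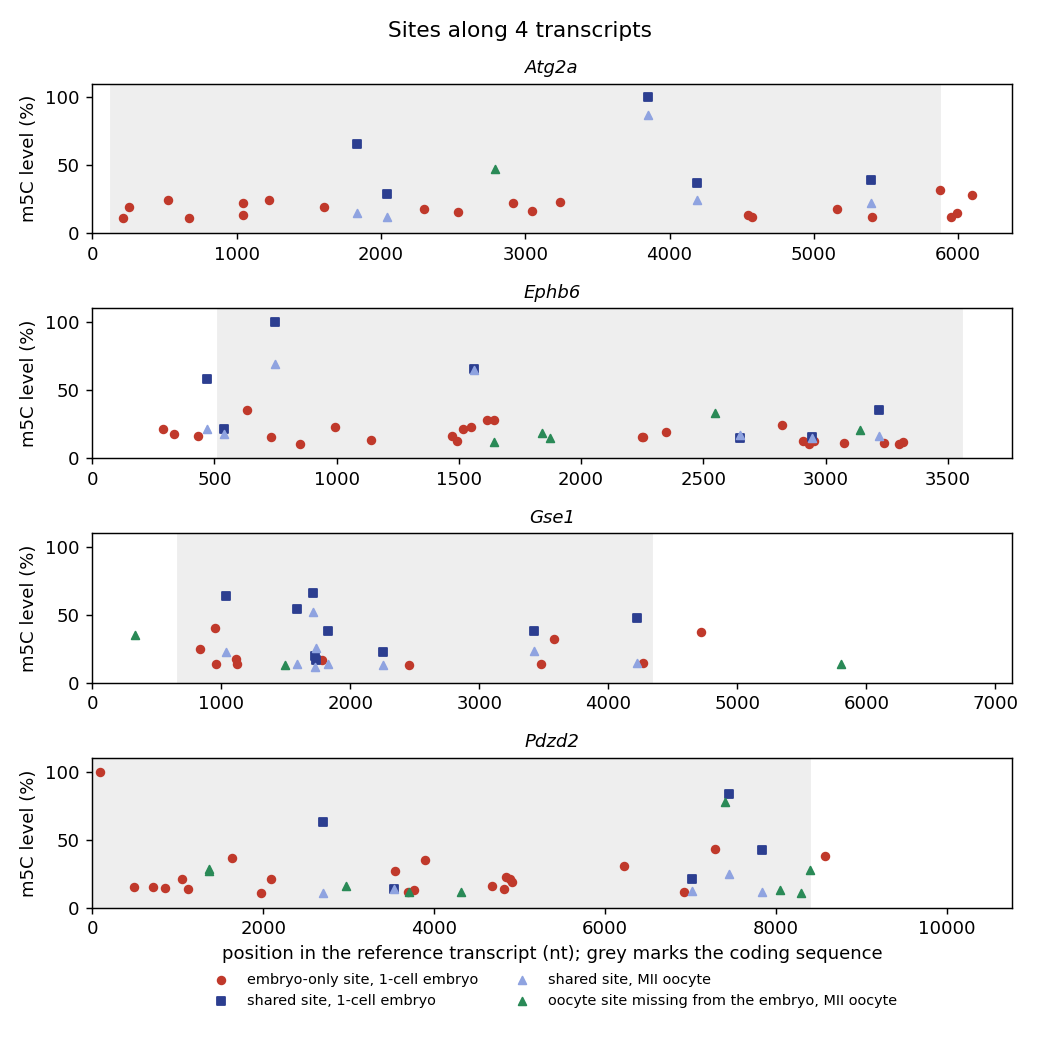
The m5C level (%, vertical axes) of every site in the reference transcript is plotted by position from the 5′ end (nt, horizontal axes) for the first 4 of these genes, with the CDS in grey and oocyte values from the MII list. Embryo-only sites are spread along the transcripts at mostly 10% to 40%, apart from 1 Pdzd2 site at 100% of 21 reads, and 13 Gse1 and 3 Pdzd2 sites outside these transcripts are left out.

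Relative to cytosine content, Arf6 came first among genes with at least 10 embryo-only sites. Its 14 sites, 12 of them in the 5′ UTR, came to 31.7 per 1000 cytosines, with a median level of 15.8%, beside 3 shared sites at a median of 48.9%. Ephb6 had 22.8 per 1000, Mcrs1, which encodes a microspherule protein, 19.8, Insm1 18.6, Lmnb1, which encodes lamin B1, 17.5, and Tcf3, which encodes an E-protein transcription factor, 16.2. The embryo background of these genes ran from 0.829% in Mcrs1 to 1.22% in Insm1, above the median of 0.384%. This rate may include unconverted reads of the sites themselves, and its part in the ranking was not tested.

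Gene groups of the oocyte and embryo were read against the 62.9% (61.8% to 64.0%) of all genes with an oocyte site that held an embryo-only site. Of oocyte and maternal-effect genes it was 29 of 39, or 74.4% (58.9% to 85.4%), with 104 sites at a median of 15.3% of 136 reads. Tet3, which oxidizes 5-methylcytosine in the paternal genome, led with 13 sites at a median of 14.3% of 167 reads, beside 16 shared sites at 42.2%. Smarca4, a chromatin remodelling ATPase, had 10 sites at 19.5% and no shared one, since none of its 3 oocyte sites was in the embryo list. Khdc3, of the subcortical maternal complex, had 9 sites at 14.6% of 207 reads.

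Of chromatin regulators, 32 of 45 genes (71.1%, 56.6% to 82.3%) held 201 embryo-only sites. Arid1a, of the same remodelling complex as Smarca4, had 18 at a median of 20.6%, Kmt2d, a histone H3 methyltransferase, 17 at 25.7% while 22 of its 25 oocyte sites were missing from the embryo, and Ep400 13 at 13.7%. Of cell cycle and meiosis genes it was 27 of 34 (79.4%, 63.2% to 89.6%) with 101 sites, led by Espl1 and by the anaphase-promoting complex genes Anapc2, with 12 sites at 14.5%, and Anapc1, with 11 at 21.7%. Of translation and mRNA decay genes it was 37 of 54 (68.5%, 55.3% to 79.3%) with 152 sites. Pan3, of a deadenylase, had 12 at 13.2%, Edc4, a decapping cofactor, 11 at 15%, and Cnot1, the scaffold of the CCR4-NOT deadenylase, 10 at 15.9%. Of extracellular matrix and adhesion genes it was 11 of 18 (61.1%, 38.6% to 79.7%) with 77 sites, of which Lama5 had 19, Lamb1 11 and Celsr1 10. The lower bound of the cell cycle genes, 63.2%, was close to the 62.9% of all genes, and the intervals of the other groups held that share. The groups were not matched to all genes in oocyte sites per gene or transcript length, and no difference between groups was tested.

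The genes that write, erase or read m5C were few. Of 6 with an oocyte site, Tet3, Srsf2 and Nsun2 held embryo-only sites. Srsf2, a splicing factor known to bind m5C, had 3 at a median of 21.4%, and Nsun2 itself had 1, at 43.4% of 53 reads, 778 nt from its sole oocyte site. Among early zygotic genes, Hspa1b and Sp110 had 1 each, at 32.3% of 31 reads and 17.5% of 80 reads, and Hspa1b is uncertain because Hspa1a is nearly identical. Of the 51 oocyte and maternal-effect genes, 41 had an embryo site, 33 a GV site and 38 an MII site. This group also holds general genes such as Dnmt1 and Smarca4, so these counts do not establish the identity of the cells. Of 19 granulosa and cumulus markers, 4 were listed at all, and of the 3 with an oocyte site Nr5a2 alone held embryo-only sites, 6 at a median of 22.8%. Amh and Cyp19a1 each held 1 MII site and no GV or embryo site. Whether these sites came from somatic cells was not tested. Star, with no oocyte site, held 2 embryo sites. Of 9 sperm markers, Prm2 was listed, in the oocytes, and none held an embryo-only site.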

How the data were processed

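RNA bisulfite libraries of GV oocytes, MII oocytes and 1-cell embryos (1 each) were used as lists of called m5C sites. Per the labels and the methods of the study, reads were trimmed with cutadapt 1.13 and Trimmomatic 0.36, and mapped with HISAT2 and Bowtie2 2.2.9 to converted GRCm38 references. The authors deposited coverage as a count of C and T reads at the site, the level as a fraction of unconverted reads (given here in percent), and a p-value from a binomial test (one-sided) that uses each gene's own conversion rate. No listed site had fewer than 20 reads, a level under 10% or fewer than 5 unconverted reads. Absence from a list therefore covers unmethylated, weakly methylated and uncovered positions. The methods of the study name further filters, among them the signal ratio, conversion-resistant genes and the binomial p-value. Positions that failed one of these can be absent too, whatever their reads and level. The deposited 1-cell embryo list differs from the one in the supplement of the study.

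Unconverted reads were taken as level times coverage. All 40281 sites on chromosomes were C on the given strand in GRCm38, and 8345 of 8353 gene identifiers were found in GENCODE M21. The reference transcript was the one with the longest CDS. It was first the one holding most listed sites. That rule had picked partial transcripts in several genes, so the choice was changed after its values had been seen, and both are compared in the closing section. The rules differed in 652 genes. Of the embryo-only sites, 14150 lay in the reference transcript and 542 of the other 572 in another transcript of the gene. Shares carry Wilson intervals, medians carry order-statistic intervals, and no p-value was computed, because each stage had 1 library and the rule used the lists themselves. Folds were made with RNAfold 2.7.2 at 37 °C, and the gene background was the rate that returns the deposited p-value, tested on simulated data. Genes were named as the 12 with most embryo-only sites, the 6 with most per 1000 cytosines, the 8 sites with most reads, the 8 with most reads at 80% or more, the 8 of highest level beside deep oocyte sites, the 6 densest windows, and the 3 leading genes of each group, or all genes of groups with at most 5 listed. A few of these genes are not reported here. The sites, rules and gene groups were chosen with earlier results of these data known. Tables were handled with pandas 2.3.3 and numpy 2.4.6 in Python 3.11.15, sequences with samtools 1.23.1 and pysam 0.24.0, statistics with scipy 1.17.1 and plots with matplotlib 3.10.9.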

Additional observations from a re-analysis of the deposited data

How the results depend on the processing

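No paired analysis was possible because each stage had 1 library. With at least 50 embryo reads, 8559 sites were left, with a median level of 15.1%, 84 reads, a distance of 215 nt, a CDS share of 78.1% and 1.84 guanines. With at least 100 reads there were 3140 sites in 1555 genes, at 13.4%, 145 reads, 211.5 nt, 81.3% CDS, 2.32% Type II and 1.93 guanines. A level of at least 20% left 7075 sites, at 30% of 37 reads and 74.3% CDS. At least 10 unconverted reads gave 20.6%, 72 reads, 219 nt, 77.0% CDS and 1.85 guanines. The MII list alone gave 242 nt. The GV list alone gave 19.8%, 310 nt, 3.57% within 10 nt and 1.85 guanines. Sites within 50 nt of an oocyte site of at least 100 reads numbered 1989 in 1252 genes, at 17.8%, 69 reads, 23 nt, 25.4% within 10 nt, 72.8% CDS, 2.31% Type II and 1.92 guanines, where the distance follows from the choice itself. Genomic distance, which counts introns, gave 677.5 nt, and CUCCA alone 2.13% Type II. In the reference transcript with most listed sites, an alternative added after seeing the data, the CDS share was 73.8%, and the distance, the share within 10 nt, the Type II share and the guanine count stayed within their intervals. The other 31 values for these results lay within the interval of the main one, or within 1.5 times of it for counts. The number and level of embryo-only sites therefore depend on the limits on reads and level. The cause of the other shifts was not tested. Of the embryo-only sites, 41.9% had under 50 reads. The counts in the 12 genes with most sites moved by over 1.5 times in 45 cases and did not in 39, and their order changed. At 50 reads Ephb6, Gbf1 and Lrp5 had 18 and Pdzd2 14, at 100 reads Insm1 had 11, Gse1 1 and Lama5 0, at a level of 20% Pdzd2, Espl1 and Lama5 had 12 and Ephb6 8, and with the GV list alone Pdzd2 had 30, Gse1 29 and Ephb6 26.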
